A study of Vitis vinifera with 6 samples.

Results

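The change of the grape berry transcriptome between young and ripe fruit was described over the 2 mRNA-Seq libraries of stage E-L 38 (harvest-ripe berries) and the 2 of stage E-L 27 (young, enlarging berries), which are 4 of the 6 libraries of the series. Each stage is represented by the mutant, a seedless somatic variant, and by the wild-type, the seeded wine grape (Vitis vinifera) from which it derives, so that a gene could be followed in both clones. The remaining 2 libraries come from flowers at E-L 15 and served to estimate the spread. Both clones grew in the same germplasm collection and were sampled on the same dates, in June for E-L 27 and in September for E-L 38, so that stage and season cannot be told apart. Each library holds the pooled RNA of 3 extractions from a single biological replicate, a whole bunch at the berry stages and a whole inflorescence at E-L 15. With 1 library per clone and stage, the clones stand in for replicates, and the spread behind every p-value is the departure of the 6 libraries from additive effects of stage and clone.

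Berry growth begins with cell division and enlargement, when the fruit is hard, green and acidic. At ripening the flesh softens as pectin and other wall polymers are modified, sugars accumulate in the vacuole, and chitinases and other defence proteins become abundant. Seeds mature inside seeded berries over the same months.

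Levels are given as RPM, the uniquely mapped reads of a gene scaled to a fixed library total, which are not divided by gene length and do not rank genes against each other. Between 70331451 and 98800321 reads were counted per library, so that 1 read equals 0.0101 to 0.0142 RPM. A count of 0 allows up to 3 reads, or 0.0304 to 0.0427 RPM. The 2 clones resembled each other more than the 2 stages did. Across genes, Spearman's rho was 0.978 between the E-L 38 libraries and 0.991 between the E-L 27 libraries, against 0.854 to 0.861 between stages.

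In whole berries, fewer cells of a type and less RNA per cell cannot be told apart. The summed level of 8 seed maturation genes at E-L 38 was 1.51 RPM in the mutant and 952 RPM in the wild-type, and at E-L 27 it was 3.24 RPM in the mutant and 6.68 RPM in the wild-type. In both mutant berry libraries 4 of the 8 were at 0 reads. At E-L 38 the 2 ovule and seed coat markers summed to 26.8 RPM in the mutant and 33.3 RPM in the wild-type. At E-L 27 their sums were 13.2 and 81.5 RPM, so that the sum rose in the mutant and fell in the wild-type. Nearly all of it at E-L 38 was SEEDSTICK, at 26.7 and 33.2 RPM, with TRANSPARENT TESTA16 at 0.0705 and 0.0708 RPM. The 4 stamen and pollen markers summed to 1.2 RPM in the mutant and 0.0709 RPM in the wild-type at E-L 38, against 11.6 and 23.2 RPM at E-L 27. All 14 stamen and pollen genes named by the study fell less in sum. They had 5.84 RPM in the mutant and 29.3 RPM in the wild-type at E-L 38, against 43.1 and 53.7 RPM at E-L 27. Of the E-L 38 sums, MALE STERILITY 5 VIT_15s0107g00550 held 2.47 and 21.8 RPM. The wild-type E-L 27 library also stood apart in genes of ripe fruit. Over 27 genes with at least 500 RPM in both E-L 38 libraries and a rise above 32-fold in both clones, the level left at E-L 27 was 0.000807 to 3.09% of the E-L 38 level in the mutant (median 0.456%) and 0.188 to 3.63% in the wild-type (median 1.13%), and it was higher in the wild-type for 27 of the 27. The choice of a rise above 32-fold limits the upper ends of these ranges and bears on the medians. The part of these values in the results was not tested. Subtracting 0.2% of the wild-type E-L 38 reads from wild-type E-L 27 left 15104 genes past the threshold described next. As 0.2% is near the lowest level left in the wild-type and under its median, this count cannot show how far the whole residual level bears on the calls. Wild-type ratios of genes that rose strongly rest on this level, and their intervals do not cover it.

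Of 23570 genes tested with edgeR's quasi-likelihood test, with terms for stage and clone, 15089 (64%) passed an adjusted p-value of 0.05 for E-L 38 against E-L 27. Of these, 7043 (29.9% of the genes tested) were higher and 8046 (34.1%) were lower at E-L 38. The median log2 change was 1.27 for the genes that rose and -2.15 for those that fell, so that the falls were larger. Scaling by library size alone, as RPM does, gave nearly the same total, 15059 genes, but a split of 4963 higher and 10096 lower. The share of higher genes among those called was thus 33% on that scale and 46.7% with TMM (trimmed mean of M-values, which centres the bulk of the genes). The median log2 change of all tested genes was -0.44 by library size and -0.07 with TMM. Without mutant E-L 27 the count was 9393, and without wild-type E-L 27 it was 9666.

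**Figure D1:**
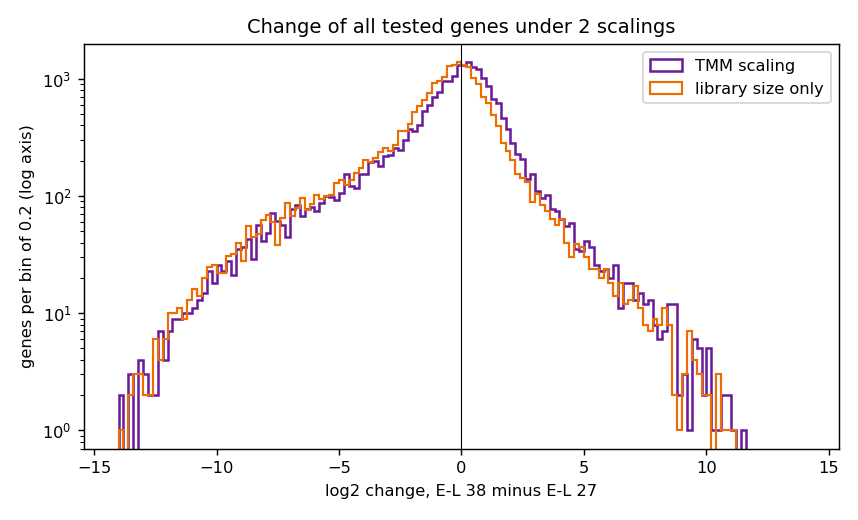
Number of genes (log axis) in bins of log2 change, E-L 38 minus E-L 27, for the 23570 genes tested, with TMM scaling and with library size only. The curve by library size lies to the left, with a median of -0.44 against -0.07, and on both scales the falls reach further than the rises.

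A gene was taken to have changed alike in both clones when it passed this threshold and its TMM-scaled ratio of E-L 38 to E-L 27 was above 2 in one direction for mutant and wild-type both. This held for 9731 genes (41.3% of those tested). Of them, 3943 (16.7%) rose and 5788 (24.6%) fell. Large falls outnumbered large rises at every size examined. Above 4-fold in both clones, 1538 genes rose and 3569 fell; above 16-fold, 379 rose and 1482 fell; above 256-fold, 28 rose and 138 fell. With RPM ratios in place of TMM-scaled ones, the last pair was 21 and 184 genes.

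Few genes, by contrast, separated the clones in direction. Of 13963 genes with at least 10 RPM in a berry library and a ratio in each clone, 90.2% had ratios within 2-fold of each other in mutant and wild-type, and the SD of the difference (mutant minus wild-type) was 0.75 on the log2 scale. The correlation of the log2 ratios across these genes was 0.954 (Pearson) and 0.957 (Spearman), given as a description, since genes are not independent and the points of a clone share its 2 libraries. Among the 6501 of these genes that changed more than 2-fold in the wild-type, 99.0% went the same way in the mutant. Only 10 of the 13963 went more than 2-fold in opposite directions, 9 of them higher in the wild-type and lower in the mutant at E-L 38. Genes with 3 reads or fewer at both stages in a clone have no ratio there and are outside these figures. Of the genes past the threshold, 29 were of this kind.

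**Figure D2:**
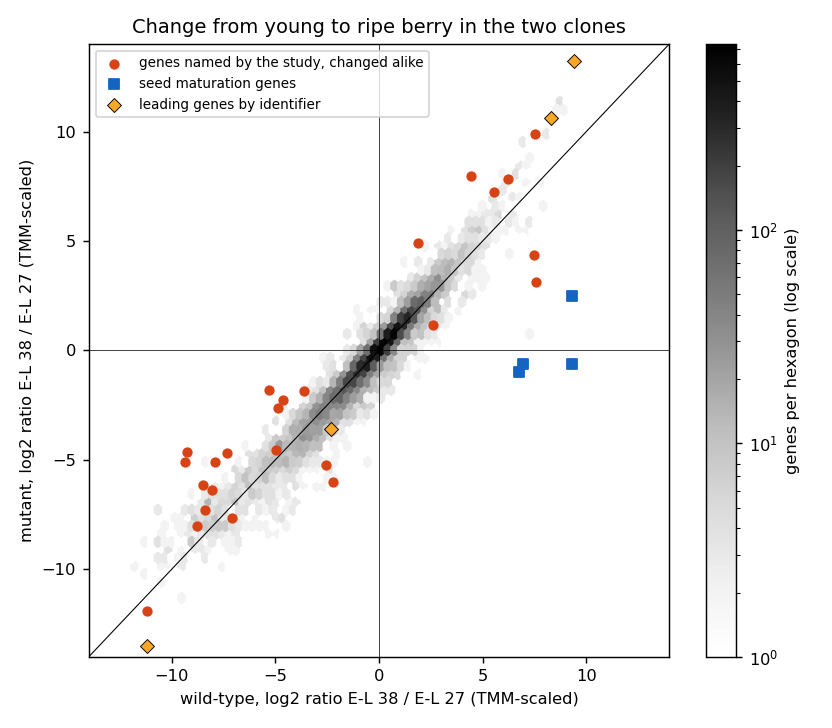
Log2 ratio of E-L 38 to E-L 27 in the mutant (vertical) against the wild-type (horizontal), TMM-scaled, with a shade for the number of genes and a diagonal of equal change. Red circles are the 25 genes named by the study that changed alike, orange diamonds 4 leading genes, and blue squares the 4 seed maturation genes with a ratio in both clones, which lie far to the right and at 2.47 or below in the mutant.

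Ripe berries drew their reads from fewer genes. The 10 genes with the most reads held 8.78% (mutant) and 6.80% (wild-type) of the library at E-L 38, against 3.64% and 2.96% at E-L 27. The top 100 held 23.4% and 20.8% at E-L 38, against 13.6% and 12.7% at E-L 27. The most-read genes making up 50% of a library numbered 880 (mutant) and 1035 (wild-type) at E-L 38, against 1531 and 1609 at E-L 27. The 3943 genes that rose alike held 48.2% (mutant) and 46.0% (wild-type) of reads at E-L 38, against 11.7% and 12.1% at E-L 27. For the 5788 that fell alike, the shares were 3.91% and 4.37% at E-L 38, against 32.6% and 31.4% at E-L 27. These shares restate the rule in units of reads and were not tested. Calls were more frequent among genes with more reads. Of the 4673 tested genes with a mean under 1 RPM over the berry libraries 41.1% passed the threshold, and of the 59 with 1000 RPM or more 89.8% did. A gene can reach that mean through E-L 38 alone, so that the direction of change in these bins was not read.

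**Figure D3:**
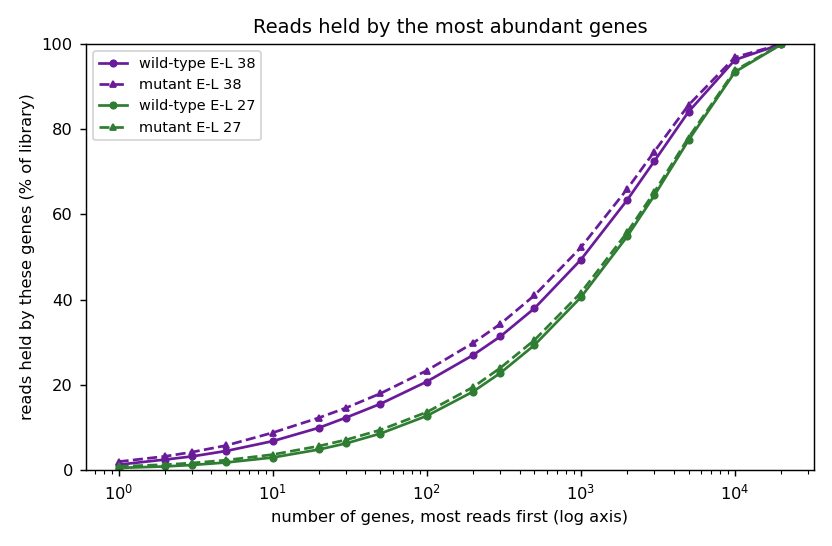
Cumulative share of reads (percent of the library) held by the most-read genes, against their number on a log axis, for the 4 berry libraries. Both E-L 38 curves lie above both E-L 27 curves, with 23.4% and 20.8% of reads at 100 genes at E-L 38, against 13.6% and 12.7% at E-L 27.

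The 5 genes with the most reads at E-L 38 held 5.78% of the mutant library and 4.50% of the wild-type library, against 0.0136% and 0.0400% at E-L 27, and all 5 rose alike. The first of them, VIT_05s0049g00520 on chromosome 5, had 19835 RPM in the mutant and 12815 RPM in the wild-type at E-L 38, against 16.6 and 50.8 RPM at E-L 27. The ratio was 1592-fold (95% interval 1503 to 1688) in the mutant and 316-fold (307 to 325) in the wild-type, and the log2 change was 9.65 ± 1.02 (SE; edgeR, adjusted p = 0.002). The largest rise among genes with at least 100 RPM in both E-L 38 libraries belonged to VIT_05s0049g00760, which carries the same scaffold number. It had 10027 RPM in the mutant and 7428 RPM in the wild-type at E-L 38, against 1.38 and 14 RPM at E-L 27. Its log2 change of 11.44 ± 1.47 (SE; edgeR, adjusted p = 0.00348) became 14.17 when 0.2% of the wild-type E-L 38 reads was subtracted from wild-type E-L 27. The 12 largest rises under this rule, with log2 changes of 8.77 to 11.44, lay on 8 chromosomes and included 1 gene with a name, EXPB4.

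At the young stage the 5 most-read genes fell alike. VIT_19s0090g01000, the first of them, had 557 RPM in the mutant and 828 RPM in the wild-type at E-L 38, against 8799 and 5098 RPM at E-L 27, so that it remained well read in ripe fruit. Its log2 change was -2.94 ± 0.36 (SE; edgeR, adjusted p = 0.00314). Other genes fell to nearly nothing. VIT_02s0154g00320 had 0.0705 RPM (5 reads) in the mutant and 0.364 RPM (36 reads) in the wild-type at E-L 38, against 1088 and 1084 RPM at E-L 27. This was the largest fall among genes with at least 100 RPM in both E-L 27 libraries, at a log2 change of -11.84 ± 0.60 (SE; edgeR, adjusted p = 0.00046). The 12 largest such falls lay between -11.84 and -10.34 and included 1 gene with a name, the aquaporin GAMMA-TIP3/TIP1;3. The sources used here give these 4 identifiers no product.

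Names and roles were available for 64 genes. They had been chosen by the study on these samples, so that their counts are not independent evidence of a direction. Of the 55 that were tested, 10 rose and 17 fell past the threshold, where 29.9% and 34.1% of all genes tested did, with a median log2 change of -1.98 over the 55 against -0.07 over all genes. Alike in both clones, 8 rose and 17 fell, where 16.7% and 24.6% of all genes did. The genes are grouped here by role. Ratios within a clone are TMM-scaled with 95% exact conditional binomial (Clopper-Pearson) intervals, which cover counting error only, and where a stage had at most 3 reads the ratio uses 3 and is written as a lower bound.

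For the following members the study designed real-time PCR primers, whose sequences identify the transcript region behind each name. They are shown for 1 wall gene that rose, 3 pectin enzymes that fell, 1 of the 3 regulators that rose and a seed coat regulator that fell, 5′ to 3′ in lower case:
EXPB4 forward: agtcttggggtgccgtttgg
EXPB4 reverse: gccatcccgctggaatgaca
pectinesterase VIT_15s0048g00510 forward: tctcaaacatggctcagcac
pectinesterase VIT_15s0048g00510 reverse: gtgttgctgatgagcttgga
pectinesterase VIT_11s0016g03020 forward: attggcaccttcaattctgc
pectinesterase VIT_11s0016g03020 reverse: attctaaatgccaccgcttg
pectate lyase forward: caatacgagcccacattgcg
pectate lyase reverse: ttcaggttccttctcgtgcc
LATERAL ORGAN BOUNDARIES 41 forward: agcggctctctttggttgaa
LATERAL ORGAN BOUNDARIES 41 reverse: gaagacagggtcggatggtg
TRANSPARENT TESTA16 forward: gtgatggagcagttcccatt
TRANSPARENT TESTA16 reverse: tactggagggtgaggtcctg

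All 6 tested wall genes of 7 changed alike, 2 upward and 4 downward, against 16.7% and 24.6% of all genes tested. The beta-expansin EXPB4 (VIT_15s0021g02700, chromosome 15) belongs to the proteins that loosen the wall without cutting its polymers. It had 1396 RPM in the mutant and 1103 RPM in the wild-type at E-L 38, against 1.96 and 7.44 RPM at E-L 27, and 0 and 0.335 RPM in flowers. The libraries of the stages did not overlap, which the rule for genes that changed alike favours. EXPB4 was 945-fold higher (800 to 1125) in the mutant and 186-fold higher (172 to 200) in the wild-type, with a log2 change of 8.77 ± 1.06 (SE; edgeR, adjusted p = 0.00293). The 1,4-beta-mannan endohydrolase (VIT_18s0089g00140), an enzyme that cuts mannan chains, was read far less. It had 8.03 RPM in the mutant and 2.65 RPM in the wild-type at E-L 38, against 0 and 0.155 RPM at E-L 27. The rise was at least 250-fold in the mutant and 21.4-fold (12.5 to 39.7) in the wild-type, and edgeR's adjusted p of 0.0336 became 0.143 without mutant E-L 27 and 0.0997 without wild-type E-L 27. Its level in flowers was 3.51 RPM in the mutant and 40.7 RPM in the wild-type, so that the rise did not exceed the flower level in the wild-type.

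The 3 pectin enzymes among the named genes all fell. Pectinesterases remove methyl groups from pectin. Pectinesterase VIT_15s0048g00510 had 2.37 RPM in the mutant and 4.35 RPM in the wild-type at E-L 38, against 74.9 and 171 RPM at E-L 27. It was 23.8-fold lower (20.4 to 27.9) in the mutant and 31.3-fold lower (28.4 to 34.5) in the wild-type, with a log2 change of -4.79 ± 0.33 (SE; edgeR, adjusted p = 0.00076). Pectinesterase VIT_11s0016g03020 had 0.212 RPM in the mutant and 0.192 RPM in the wild-type at E-L 38, against 23.7 and 64.9 RPM at E-L 27, a log2 change of -7.34 ± 0.54 (SE; edgeR, adjusted p = 0.000849). Pectate lyase (VIT_01s0026g01680), which cuts demethylated pectin, had no read in either E-L 38 library, against 1.92 RPM in the mutant and 24.6 RPM in the wild-type at E-L 27. The fall was at least 34.1-fold (mutant) and at least 646-fold (wild-type). Flowers also held almost none of it, 0.0114 RPM in the mutant and 0.0216 RPM in the wild-type. Wall-associated kinase 4 (VIT_01s0026g01420), a receptor of the plasma membrane that contacts pectin, had 0.212 RPM in the mutant and 0.344 RPM in the wild-type at E-L 38, against 57.2 and 58.8 RPM at E-L 27. It fell by 7.32 ± 0.21 on the log2 scale (SE; edgeR, adjusted p = 0.000266).

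**Figure D4:**
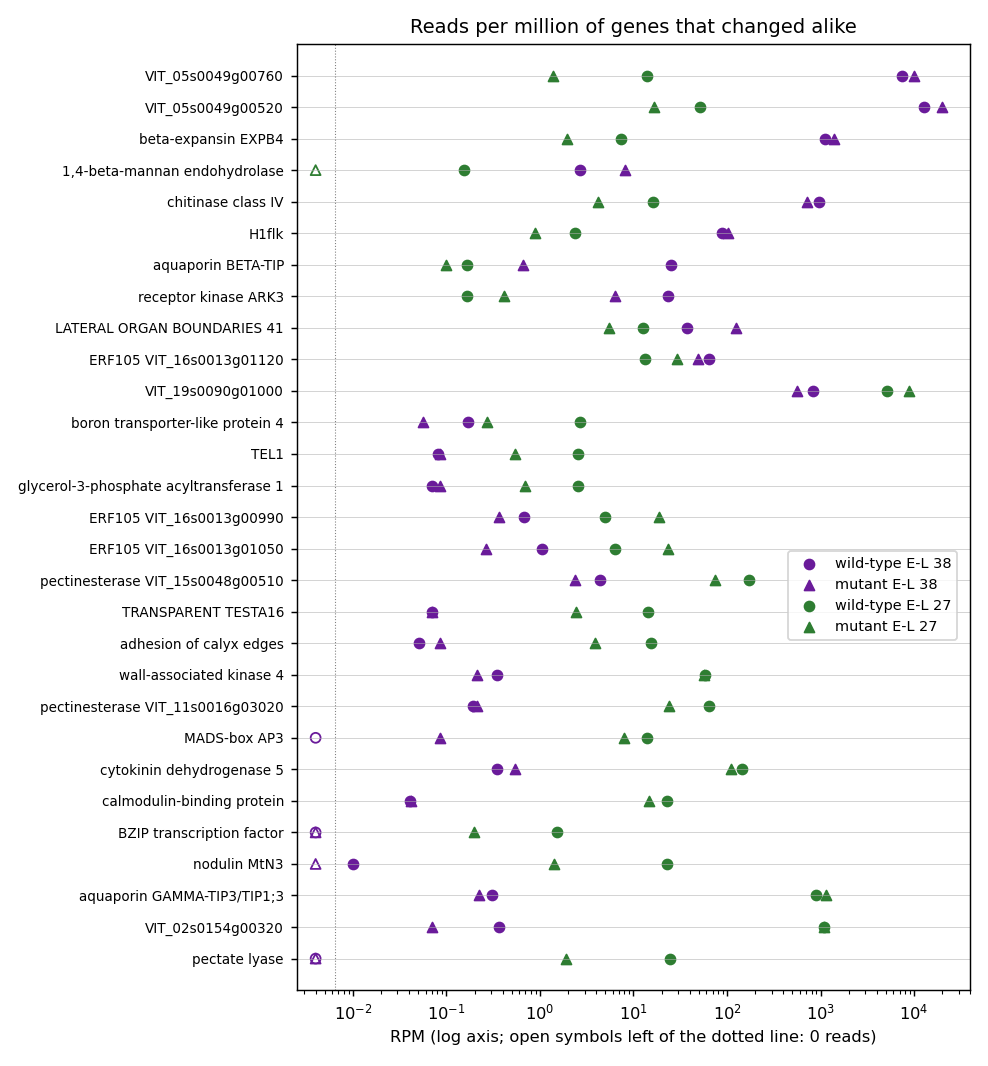
RPM (log axis) of the 25 genes named by the study that changed alike and of 4 leading genes given by identifier, ordered by log2 change, in the mutant (triangles) and the wild-type (circles) at E-L 38 (purple) and E-L 27 (green). Open symbols left of the dotted line are libraries with 0 reads. The stages do not overlap in any of the 29 genes, with EXPB4 at 1396 and 1103 RPM at E-L 38, against 1.96 and 7.44 RPM at E-L 27. The genes were chosen for a change above 2-fold in each clone, which favours this.

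Among 8 genes of defence and ethylene response, 2 rose and 2 fell alike, 3 did not pass the test and 1 was not tested (16.7% and 24.6% of all genes rose and fell alike). The class IV chitinase (VIT_05s0094g00330), which breaks down fungal cell walls, had 712 RPM in the mutant and 970 RPM in the wild-type at E-L 38, against 4.19 and 16.2 RPM at E-L 27. It was 226-fold higher (201 to 254) in the mutant and 74.9-fold higher (71.2 to 79.0) in the wild-type, with a log2 change of 6.93 ± 0.59 (SE; edgeR, adjusted p = 0.00116). The 4 genes named ERF105, transcription factors of the ethylene response family, carry the same scaffold number on chromosome 16 and did not move together. ERF105 VIT_16s0013g01120 had 49.1 RPM in the mutant and 63.7 RPM in the wild-type at E-L 38, against 29.5 and 13.2 RPM at E-L 27. Its rise was 2.22-fold (2.10 to 2.34) in the mutant and 6.05-fold (5.69 to 6.45) in the wild-type (edgeR, adjusted p = 0.0169). ERF105 VIT_16s0013g00990 had 0.367 RPM in the mutant and 0.678 RPM in the wild-type at E-L 38, against 18.6 and 5.02 RPM at E-L 27 (edgeR, adjusted p = 0.018). ERF105 VIT_16s0013g01050 had 0.268 RPM in the mutant and 1.06 RPM in the wild-type at E-L 38, against 23.3 and 6.29 RPM at E-L 27. Its adjusted p in edgeR was 0.0272 with all libraries and 0.0704 in the berry libraries alone. The remaining ERF105 VIT_16s0013g00950 had 0.437 RPM in the mutant and 2.14 RPM in the wild-type at E-L 38, against 22.1 and 5.15 RPM at E-L 27, and did not pass (edgeR, log2 change -3.20, adjusted p = 0.0758). Summed over the 4 genes, reads came to 50.2 RPM in the mutant and 67.6 RPM in the wild-type at E-L 38, against 93.6 and 29.6 RPM at E-L 27, so that the sum moved in opposite directions in the clones. Reads with several positions were excluded by the authors, which leaves the division of reads among similar neighbours uncertain.

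Of 7 transport genes 6 were tested, of which 1 rose and 3 fell alike and 2 did not pass, against 16.7% of all genes that rose and 24.6% that fell alike. The aquaporin GAMMA-TIP3/TIP1;3 (VIT_06s0061g00730, chromosome 6), a water channel of the vacuolar membrane, had 0.226 RPM in the mutant and 0.304 RPM in the wild-type at E-L 38, against 1138 and 888 RPM at E-L 27. It was 3796-fold lower (2337 to 6642) in the mutant and 2335-fold lower (1635 to 3461) in the wild-type, with a log2 change of -11.50 ± 0.25 (SE; edgeR, adjusted p = 0.000266). Flowers held 423 RPM in the mutant and 406 RPM in the wild-type, so that ripe fruit was low against both earlier stages. The nodulin MtN3 (VIT_17s0000g08110), from a family of sugar transporters, had 0 reads in the mutant and 1 read in the wild-type at E-L 38, against 1.42 and 23.1 RPM at E-L 27. The fall was at least 25.3-fold (mutant) and at least 607-fold (wild-type) (edgeR, adjusted p = 0.000752). The boron transporter-like protein 4 (VIT_04s0008g04980) had 0.0564 RPM in the mutant and 0.172 RPM in the wild-type at E-L 38, against 0.270 and 2.69 RPM at E-L 27, and its adjusted p of 0.0312 became 0.111 without wild-type E-L 27 and 0.122 without wild-type E-L 38 (edgeR). The aquaporin BETA-TIP (VIT_16s0039g00220), known in Arabidopsis from the storage vacuoles of seeds, had 0.663 RPM in the mutant and 25.2 RPM in the wild-type at E-L 38, against 0.0995 and 0.166 RPM at E-L 27. It rose 8.85-fold (3.98 to 23.2) in the mutant and 190-fold (115 to 340) in the wild-type, in which the seed maturation genes were also high. Its adjusted p of 0.0247 became 0.0646 without mutant E-L 27 and 0.165 without wild-type E-L 27 (edgeR).

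The 1 hormone gene tested of 2, cytokinin dehydrogenase 5 (VIT_18s0001g13200), encodes an enzyme that breaks down cytokinins, the hormones of cell division. It had 0.536 RPM in the mutant and 0.344 RPM in the wild-type at E-L 38, against 111 and 144 RPM at E-L 27. It was 156-fold lower (113 to 220) in the mutant and 334-fold lower (239 to 482) in the wild-type, with a log2 change of -7.84 ± 0.34 (SE; edgeR, adjusted p = 0.000369).

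Among 9 genes of regulation and signalling 7 were tested, of which 3 rose alike, 3 fell alike and 1 did not pass. Over all genes tested 41.3% changed alike. H1flk (VIT_05s0020g04850), named after linker histone H1, had 102 RPM in the mutant and 89.1 RPM in the wild-type at E-L 38, against 0.896 and 2.36 RPM at E-L 27. Flowers were as low as young berries, at 0.932 RPM in the mutant and 0.994 RPM in the wild-type. H1flk was 151-fold higher (118 to 197) in the mutant and 47.3-fold higher (41.3 to 54.4) in the wild-type, with a log2 change of 6.30 ± 0.49 (SE; edgeR, adjusted p = 0.000972). The receptor kinase ARK3 (VIT_19s0014g04130) had 6.38 RPM in the mutant and 23.6 RPM in the wild-type at E-L 38, against 0.412 and 0.166 RPM at E-L 27. Its rise was 20.5-fold (14.1 to 31.0) in the mutant and 178-fold (108 to 318) in the wild-type (edgeR, adjusted p = 0.00554). LATERAL ORGAN BOUNDARIES 41 (VIT_14s0006g02950), a transcription factor of a plant-specific family, had 123 RPM in the mutant and 37.4 RPM in the wild-type at E-L 38, against 5.45 and 12.6 RPM at E-L 27. It rose 30.1-fold (27.2 to 33.4) in the mutant and 3.72-fold (3.48 to 3.98) in the wild-type. Its log2 change was 3.25 ± 0.84 (SE; edgeR, adjusted p = 0.0268), with an adjusted p of 0.0616 in the berry libraries alone. Flowers lay in between, at 53.1 RPM in the mutant and 25.4 RPM in the wild-type.

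The 3 regulators that fell were a calmodulin-binding protein, TEL1 and adhesion of calyx edges. The calmodulin-binding protein (VIT_00s1404g00010, not placed on a chromosome) had 0.0423 RPM in the mutant and 0.0405 RPM in the wild-type at E-L 38, against 14.6 and 22.6 RPM at E-L 27 (edgeR, log2 change -8.42, adjusted p = 0.000346). Adhesion of calyx edges (VIT_09s0002g02210), needed in Arabidopsis to keep floral organs from fusing, had 0.0846 RPM in the mutant and 0.0506 RPM in the wild-type at E-L 38, against 3.88 and 15.4 RPM at E-L 27. TEL1 (VIT_14s0219g00270) had 0.0846 RPM in the mutant and 0.0810 RPM in the wild-type at E-L 38, against 0.540 and 2.53 RPM at E-L 27. Both were highest in flowers, where adhesion of calyx edges had 116 and 103 RPM and TEL1 had 21.6 and 20.3 RPM in the mutant and the wild-type. The adjusted p of TEL1 was 0.0169 with all libraries and 0.0719 without wild-type E-L 38 (edgeR).

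Of 6 genes of ovule and seed coat, all tested, 2 fell alike, where 24.6% of all genes did, and 4 did not pass. TRANSPARENT TESTA16 (VIT_01s0011g01560), a MADS-box regulator of the inner seed coat in Arabidopsis, had 0.0705 RPM in the mutant and 0.0708 RPM in the wild-type at E-L 38, against 2.43 and 14.2 RPM at E-L 27. It was 25.9-fold lower (10.9 to 80.9) in the mutant and 160-fold lower (77.3 to 398) in the wild-type, with a log2 change of -6.30 ± 1.14 (SE; edgeR, adjusted p = 0.00939). The E-L 38 values rest on 5 reads in the mutant and 7 reads in the wild-type. The BZIP transcription factor (VIT_18s0001g03010) had no reads at E-L 38 or in flowers, against 14 (mutant) and 136 reads (wild-type) at E-L 27, a fall of at least 3.54-fold in the mutant and at least 39.6-fold in the wild-type (edgeR, adjusted p = 0.0164).

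Of 14 stamen and pollen genes, all tested, 2 fell alike and 12 did not pass the test, where 24.6% of all genes fell alike. A list of 14 is too short to read a difference from that share. The 12 differed in level at E-L 27. MYB35 had 8 reads in the mutant and 11 reads in the wild-type, and MALE STERILITY 5 VIT_15s0107g00550 had 1880 and 1782 reads. Whether the level bears on these calls was not tested. The MADS-box gene AP3 (VIT_18s0001g13460), which specifies petals and stamens, had 0.0846 RPM in the mutant and 0 reads in the wild-type at E-L 38, against 7.95 and 13.8 RPM at E-L 27 (edgeR, log2 change -7.83, adjusted p = 0.00157). Glycerol-3-phosphate acyltransferase 1 (VIT_12s0142g00040), an enzyme of glycerolipid synthesis, had 0.0846 RPM in the mutant and 0.0708 RPM in the wild-type at E-L 38, against 0.697 and 2.58 RPM at E-L 27 (edgeR, log2 change -3.98, adjusted p = 0.00523). In flowers AP3 had 84.4 RPM in the mutant and 107 RPM in the wild-type.

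Of 9 seed maturation genes 6 were tested, and none of the 6 changed alike, against 41.3% of all genes tested. The study had listed the 9 as rising from E-L 27 to E-L 38 only in the wild-type, so that this count follows from the choice. The other 3, 7S globulin, EM6 and ABI3, had no reads in either mutant berry library. The storage protein globulin-1 S (VIT_07s0151g00640) had 1.14 RPM in the mutant and 453 RPM in the wild-type at E-L 38, against 3 and 5.25 RPM at E-L 27. Its edgeR log2 change of 5.20 ± 2.87 (SE) had an adjusted p of 0.177. The oil body protein oleosin OLE-2 (VIT_17s0000g09000) had 0.0423 RPM in the mutant and 36.3 RPM in the wild-type at E-L 38, against 0.0853 and 0.365 RPM at E-L 27 (edgeR, adjusted p = 0.108). The adjusted p-values of PM31 (VIT_18s0001g01570), the seed storage/lipid transfer protein (VIT_14s0108g00520) and PM34 (VIT_14s0128g00340) were 0.0559, 0.0598 and 0.0823 in edgeR. PM31 was above 2-fold in each clone, at 5.54-fold (2.03 to 18.8) in the mutant and 625-fold (471 to 847) in the wild-type. It thus missed the rule on its p-value alone. A small heat shock protein (VIT_04s0008g01610) passed the threshold (adjusted p = 0.00138, edgeR). The wild-type had 177 RPM at E-L 38 against 0.288 RPM at E-L 27, but neither mutant berry library held a read, so that this call rests on 1 clone, and it was lost with DESeq2. With DESeq2 the adjusted p was 0.000586 for PM31, 0.0185 for OLE-2, 0.0235 for globulin-1 S and 0.0173 for VIT_14s0108g00520, all past the threshold. PM31 also passed in the berry libraries alone (edgeR, adjusted p = 0.0203) and without the term for clone (0.0376), and VIT_14s0108g00520 passed without that term (0.0437).

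The reference genes of the real-time PCR depended on the scale. SAND (VIT_06s0004g02820) had 74.2 RPM in the mutant and 74.1 RPM in the wild-type at E-L 38, against 73.7 and 72.5 RPM at E-L 27. Its log2 change was 0.39 with TMM (edgeR, adjusted p = 0.0133) and 0.02 by library size (adjusted p = 0.835). GAPDH (VIT_17s0000g10430) had 2313 RPM in the mutant and 2586 RPM in the wild-type at E-L 38, against 2519 and 2822 RPM at E-L 27, a log2 change of 0.24 with TMM and -0.12 by library size (edgeR, adjusted p = 0.167 and 0.425).

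Flower levels were set beside the 2 kinds of change. Of the 1538 genes that rose more than 4-fold in both clones, 1367 (88.9%) were more than 2-fold lower in flowers than at E-L 38 in both clones, 53 were within 2-fold and 26 were more than 2-fold higher. Of the 3569 that fell more than 4-fold, 1927 (54.0%) were within 2-fold of E-L 27 in flowers, 704 (19.7%) were more than 2-fold lower and 392 (11%) were more than 2-fold higher. The remaining 546 showed none of these patterns in both clones. Both sets were chosen for a high level at the stage they are compared with here, which shapes these shares. Shares over all genes tested were not computed. Set against E-L 27 instead, 1100 (71.5%) of the 1538 were within 4-fold in flowers in both clones. In flowers 126 were more than 4-fold above E-L 27 in both clones, and 78 were more than 4-fold below.

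Genes that came to be read, or ceased to be, were counted with the study's detection limit of 0.5 RPM or 5 reads. Detected in both E-L 38 libraries but with 3 reads or fewer in both E-L 27 libraries were 227 genes, of which 16 had at least 1 RPM and 1 had at least 10 RPM in the lower library. Detected in both E-L 27 libraries but with 3 reads or fewer in both E-L 38 libraries were 1094 genes, of which 315 had at least 1 RPM and 48 at least 10 RPM. Counted within the mutant by itself, 19 genes of at least 10 RPM at E-L 38 had 3 reads or fewer at E-L 27, and within the wild-type by itself 4 genes did. For the reverse, with at least 10 RPM at E-L 27 and 3 reads or fewer at E-L 38, the counts were 126 and 102 genes. How far the level left in wild-type E-L 27 bears on the genes that came to be read was not tested.

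Genes that rose tended to lie beside each other by identifier. Among adjacent identifiers with the same scaffold number, 23.0% of the tested neighbours of a gene that rose more than 4-fold in both clones had done so too, against 6.43% of all genes in such pairs. For falls the shares were 25% and 14.9%. Runs of 3 or more such tested neighbours numbered 59 among rises and 173 among falls. The longest run by far was 33 tested genes on chromosome 16, while the longest run of falls held 8. Summed over the 33 genes, reads came to 131 RPM in the mutant and 926 RPM in the wild-type at E-L 38, against 3.73 and 10.1 RPM at E-L 27, and 5.16 and 2.03 RPM in flowers. The median gene had 2.61 RPM in the mutant and 18.7 RPM in the wild-type at E-L 38, against 0.0284 and 0.177 RPM at E-L 27. The log2 changes ran from 3.25 to 8.65. At E-L 38 the mutant was below the wild-type in 33 of the 33. The sources give these genes no product, and whether they resemble each other in sequence, which would move reads out of the counts, was not analysed here.

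**Figure D5:**
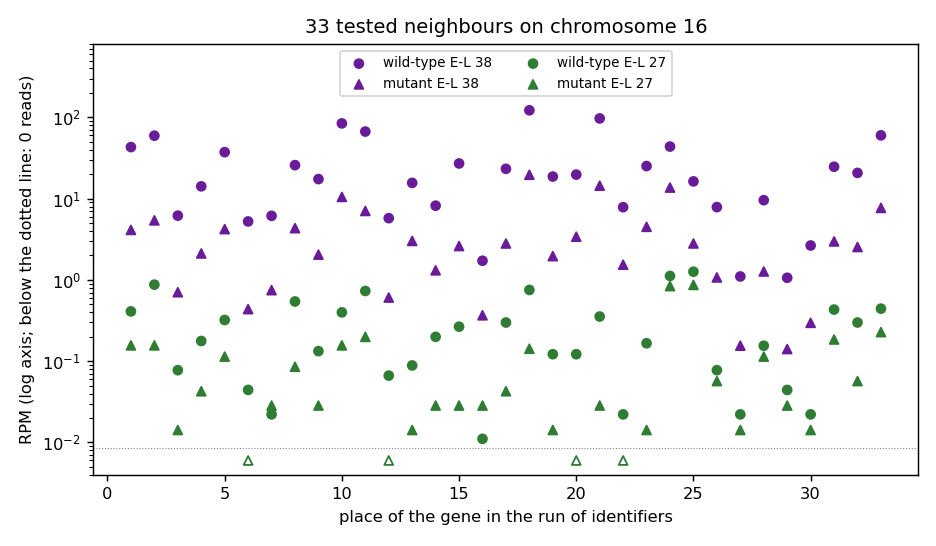
RPM (log axis) of the 33 tested genes of the run on chromosome 16, in the order of their identifiers, in the mutant (triangles) and the wild-type (circles) at E-L 38 (purple) and E-L 27 (green). Every gene is higher at E-L 38 in its own clone, and the mutant lies below the wild-type at E-L 38 in all 33; open symbols below the dotted line are 0 reads.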

How the data were processed

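mRNA-Seq counts of 28059 gene models were used for 6 libraries, 1 for each clone (wild-type, mutant) and stage (flowers, young berries and ripe berries). The deposited counts are whole numbers of uniquely mapped reads: the authors aligned poly(A) paired-end reads with BWA to the 12x v1 mRNA annotation, with no more than 2 mismatches over the first 32 bp, selected reads with SAMtools, excluded those with several positions and summed the rest per gene model. The deposited RPM values were made by the authors by scaling these counts to reads per 1000000 uniquely mapped, without division by length, and it was checked that they equal the counts so scaled. Reads with several positions being left out, near-identical copies are undercounted.

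Genes were tested with edgeR 4.0.16 in R 4.3.3 (filterByExpr, TMM, glmQLFit and glmQLFTest over all 6 libraries, stage and clone as terms, leaving 2 residual degrees of freedom), with Benjamini-Hochberg adjusted p below 0.05. The SE of a log2 change is its size divided by the square root of F. The fit was tested on simulated data. Ratios within a clone used TMM-scaled counts, with a floor of 3 reads and 95% intervals. Alternatives were RLE factors, library size only, 2 other filters, the berry libraries alone, DESeq2 1.42.0, no term for clone and leaving out each library; the subtraction of 0.2% was chosen after seeing the data. Python 3.11.15 and matplotlib 3.10.9 were used for the rest.

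Named are genes the study gives by identifier, with values where both clones passed 2-fold, the 12 largest rises and falls with at least 100 RPM in both libraries of the higher stage, the 5 most-read genes of each stage and the 4 largest differences between clones. Identifiers without a product were limited to 2 that rose and 2 that fell. Seed maturation, reference and oppositely changed genes were added. The members and lists were chosen with earlier results of these data known. Lists by function and promoter motifs had been planned, but no table used here links these identifiers to products or sequences (0 RefSeq matches), and they were not run. Chromosomes were read from the identifiers, and coordinates were not used here.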

Additional observations from a re-analysis of the deposited data

Results flagged for a closer look

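Of the genes named by the study, 2 moved more than 2-fold in opposite directions in the clones on TMM-scaled ratios. MALE STERILITY 5 VIT_07s0005g05680 had 0.0423 RPM (3 reads) in the mutant and 3.48 RPM in the wild-type at E-L 38, against 0.213 and 0.166 RPM at E-L 27. The mutant minus wild-type difference in the log2 ratio of E-L 38 to E-L 27 was -6.64. The chalcone and stilbene synthase VIT_15s0021g02170 had 0.409 RPM in the mutant and 0.273 RPM in the wild-type at E-L 38, against 0.227 and 3.09 RPM at E-L 27, a difference of 4.43. Its rise in the mutant was 2.39-fold (95% interval 1.26 to 4.71) with TMM and 1.80-fold by RPM. By RPM, globulin-1 S would count as opposite too, at 2.63-fold lower in the mutant and 86.3-fold higher in the wild-type, as would OLE-2 and VIT_14s0108g00520, at least 2.02-fold lower in the mutant (6 reads at E-L 27). SEEDSTICK (VIT_18s0041g01880) would count by RPM in the other sense, at 2.49-fold higher in the mutant and 2.03-fold lower in the wild-type. It had 26.7 RPM in the mutant and 33.2 RPM in the wild-type at E-L 38, against 10.7 and 67.4 RPM at E-L 27. With 1 library per clone and stage these differences were not tested.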

How the results depend on the processing

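No paired analysis was possible because replicate numbers pair nothing here, each clone and stage having a single library with number 1. The term for clone compares the stages within clones, and 15489 genes passed without it. The count of 15089 genes past the threshold lay between 13075 and 15533 under the other scalings, filters, tests and designs, and between 9393 and 15212 when 1 library was left out; for genes higher at E-L 38 the latter range was 3965 to 7090, around 7043, and for genes lower it was 5428 to 8171, around 8046. The lowest values came without mutant E-L 27 (9393, of which 3965 higher) and without wild-type E-L 27 (9666, of which 4233 higher). The 9731 genes that changed alike became 5107 with a ratio above 4 in each clone (1538 higher, 3569 lower), fewer by construction, and 12783 with a ratio above 1.5. They could not be counted without a berry library, since a clone then lacks its ratio, and were 9072 or 9075 without a flower library. Of the 29 genes with values that changed alike, 23 passed the threshold under all alternatives that could test them, and none changed sign. Genes that changed sign did so mainly without wild-type E-L 38: leaving out 1 library at a time, log2 changes ran from -0.93 to 4.13 for VIT_07s0005g05680, from -3.07 to 0.73 for VIT_15s0021g02170, from -1.23 to 7.23 for oleosin OLE-2, from -1.37 to 7.06 for globulin-1 S, from -1.67 to 9.49 for VIT_14s0108g00520, from -4.30 to 8.68 for PM34 and from -1.18 to 9.59 for VIT_04s0008g01610. GAPDH turned to -0.12 by library size. The cause was not tested. Depth limits ratios of genes under about 3 reads, and p-values measure only the spread among these 6 libraries.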

Other observations

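Differences between the clones in log2 ratio were ranked among genes with at least 10 RPM in a berry library and a ratio in each clone. This left out genes with 3 reads or fewer at both stages in a clone. An example is VIT_04s0008g01610, with 177 RPM in wild-type E-L 38 and 0 reads in both mutant berry libraries. The 4 ranked highest were all high in wild-type E-L 38 and nearly unread in mutant E-L 38. One is the seed storage/lipid transfer protein VIT_14s0108g00520, with 0.0282 RPM (2 reads) in the mutant and 89.3 RPM in the wild-type at E-L 38, against 0.0853 and 0.177 RPM at E-L 27. The other 3 have no product in the sources used here and had 0, 1 and 5 reads in mutant E-L 38, against 12.6, 55.0 and 23.5 RPM in wild-type E-L 38.

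By chromosome, the share of tested genes past the threshold ran from 59.0% on chromosome 15 to 67.5% on chromosome 8. The share that rose alike was highest on chromosome 16, at 21.9%, which holds the run of 33 neighbours, and lowest on chromosome 15, at 12%. The share that fell alike was highest on chromosome 10, at 28.1%, and lowest on chromosome 16, at 20.8%. These shares are descriptions and were not tested.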
